A study of Mus musculus with 9 samples.

Results

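The genes described here encode the machinery of regulated exocytosis: synaptotagmins, synaptotagmin-like proteins, SNAREs and their binding partners, Rab3 and Rab27, Unc13 proteins and ferlins. Members were chosen by gene symbol. The rule took every symbol in which Syt, Sytl, Stx, Vamp or Stxbp is followed by a digit, and a list of 18 further names, of which 17 were found. It gave 68 of the 27179 genes in the count table. There were 17 synaptotagmins, 15 syntaxins, 7 Stxbp genes, 7 VAMPs, 6 genes of the synaptotagmin-like class (with Doc2b), 5 Rab genes, 5 ferlins, 4 SNAP genes and 2 Unc13 genes. A filter on low counts left 55 members for testing. Of the other 13 members, 5 had no count in any library (Stxbp5l, Vamp7, Syt10, Syt14 and Syt4). The remaining 8 held at most 36 counts each over all 9 libraries, among them Fer1l6, Otof, Syt1, Syt2 and Syt6.

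Expression was measured by bulk RNA sequencing of luminal epithelial cells sorted from adult mouse mammary glands, in 3 populations of 3 libraries each. All cells were negative for lineage markers, and the labels name PR-cre/YFP for all of them, a YFP reporter switched on by Cre made under the progesterone receptor (PR) gene. ML cells lacked CD14 at the surface and are YFP positive in the sample labels, although the series design text calls them YFP negative. HR+ LP cells were positive for CD14 and YFP. HR- LP cells were positive for CD14 and negative for YFP. HR and LP are written as in the labels. Strain, exact age and pooling of animals are not given in the labels, which also do not say that replicates came from separate animals, so p-values measure the spread between these libraries. The gates set up 3 pairwise comparisons, of ML with each of the CD14-positive gates and of HR+ LP with HR- LP.

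As background, a secretory vesicle fuses when a VAMP on the vesicle pairs with a syntaxin and a SNAP protein on the target membrane. Rab3 and Rab27 recruit effectors such as the synaptotagmin-like proteins, which tether vesicles at the plasma membrane. Stxbp (Munc18) and Unc13 (Munc13) proteins prepare the SNAREs for fusion, and synaptotagmins, Doc2 proteins and ferlins carry C2 domains, many of which bind calcium and trigger fusion or membrane repair. In the mammary gland, caseins and other milk proteins leave alveolar cells by vesicle exocytosis.

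Libraries held 27219103 to 108119756 counts. Levels are given as TMM-scaled CPM, that is, reads counted relative to a fixed library total, with library sizes adjusted by TMM, and folds as log2 values with their standard error (SE). The members held 0.292% to 0.307% of the counts in ML libraries, 0.247% to 0.265% in HR+ LP libraries and 0.168% to 0.176% in HR- LP libraries. Their summed level was 2834 ± 79.9 CPM in ML, 2506 ± 10.1 CPM in HR+ LP and 1833 ± 32.2 CPM in HR- LP (SD, n = 3). Abundant genes weigh most in this sum, and Myof alone averaged 443 CPM in ML, 336 CPM in HR+ LP and 74.3 CPM in HR- LP. The sum does not speak for every class, as the class sums given below differ in direction. In bulk samples, fewer cells of a type and less RNA per cell cannot be told apart. Esr1, the estrogen receptor gene, and Kit, a receptor of progenitor cells, were among the genes that check the labels. Esr1 averaged 162 ± 4.12 CPM in ML, 123 ± 8.83 in HR+ LP and 15.1 ± 5.83 in HR- LP. Kit averaged 7.46 ± 4.66 CPM in ML, 515 ± 47.7 in HR+ LP and 1537 ± 227 in HR- LP. All 6 hormone sensing markers read below, Esr1 among them, were higher in ML and in HR+ LP than in HR- LP. None of the 6 passed adjusted p below 0.05 between ML and HR+ LP (edgeR quasi-likelihood test, 0.567 for Esr1). The 6 alveolar progenitor markers, Kit among them, passed it in all 3 comparisons. The second principal component of all genes, with 10.1% of the variance, set HR- LP replicate 3 apart, at 91.6 against -15.8 and -39.5 for the other HR- LP libraries.

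ML and HR+ LP cells held higher levels of 1 subset of the machinery than HR- LP cells: Syt7, Syt8, Syt15, the Rab27 effectors Sytl2, Sytl3 and Sytl5, Rab27b, Unc13b, Myof, Fer1l4 and Stxbp6. Vamp1, Stxbp3, Stx4a and Doc2b were lower in both than in HR- LP cells. In HR+ LP the call was lost in 11 of 17 alternative fits for Stx4a, 9 for Sytl3, 3 for Doc2b and 1 for Syt15. In HR+ LP against HR- LP, 17 members were higher and 4 lower, and 34 of the 55 tested were not called (edgeR quasi-likelihood test, adjusted p below 0.05). Among all 15910 tested genes 17.2% were higher and 12.8% lower in that comparison. The median log2 fold change was 0.24 over the tested members and 0.005 over all tested genes. The 4 lower calls became 2 without HR+ LP replicate 2, HR+ LP replicate 3 or HR- LP replicate 2, as Stx4a and Doc2b lost theirs.

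In ML against HR- LP, 21 members were higher and 11 lower, against 23.3% of all tested genes higher and 21.3% lower. The median log2 fold change was 0.33 over the members and 0.03 over all tested genes. Of the higher calls 13 exceeded a log2 fold change of 1, as did 12 of the 17 in HR+ LP against HR- LP. Among the lower calls, 4 of 11 and 1 of 4 exceeded that size. The libraries of both populations did not overlap for any called member. Shares of all called genes with such sizes or such separation are not given here, so neither is read as particular to the members. Both comparisons share the HR- LP libraries. With scaling by library totals alone, the median of all genes shifted to 0.19 and the split in ML against HR- LP was 25 higher to 6 lower (80.6% of calls higher, against 65.6% with TMM scaling). The 11 lower calls became 7 without ML replicate 1 and 6 without ML replicate 2. Without HR- LP replicate 3, the library that stood apart, 16 members were higher and 4 lower in HR+ LP against HR- LP, and 21 were higher and 9 lower in ML against HR- LP.

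**Figure D1:**
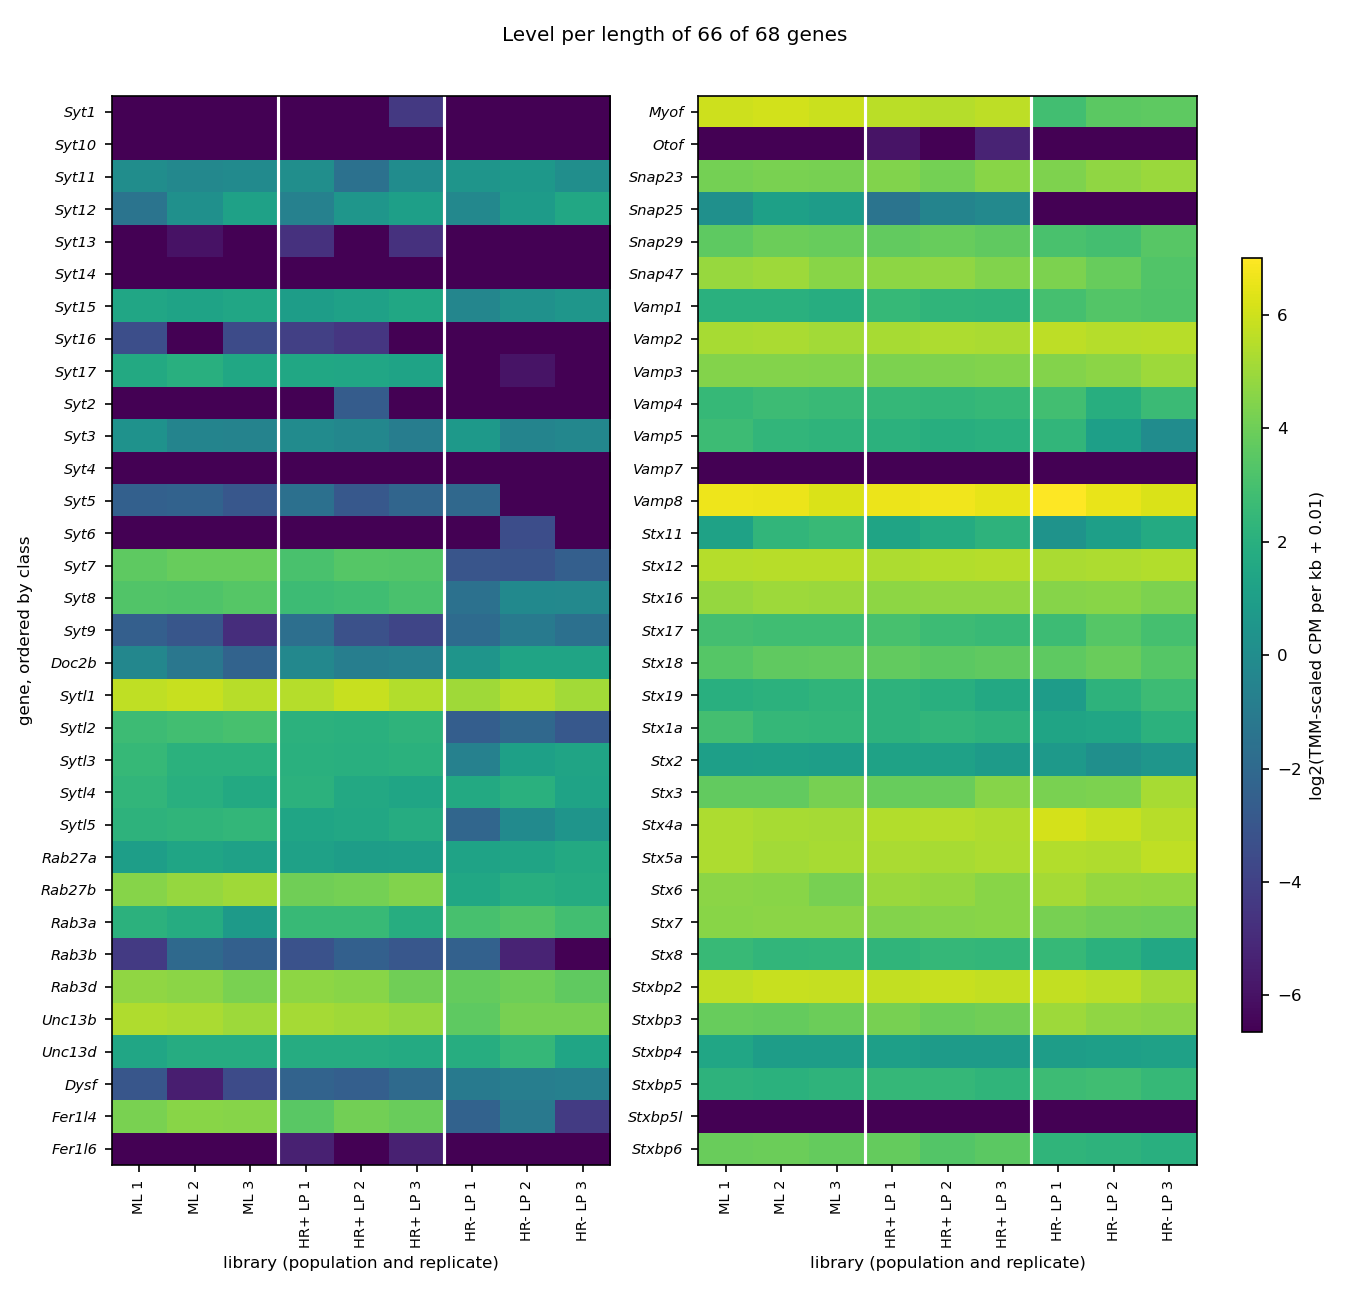
Level of 66 of the 68 genes in each library (columns, by population and replicate), as log2 of TMM-scaled CPM per kilobase of gene plus 0.01, with genes in rows ordered by class. The darkest cells are genes with no counts. Syt7, Syt17, Sytl2, Snap25 and Fer1l4 are brighter in the ML and HR+ LP columns than in the HR- LP columns, whereas most syntaxins and VAMPs look alike across the 9 columns.

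**Figure D2:**
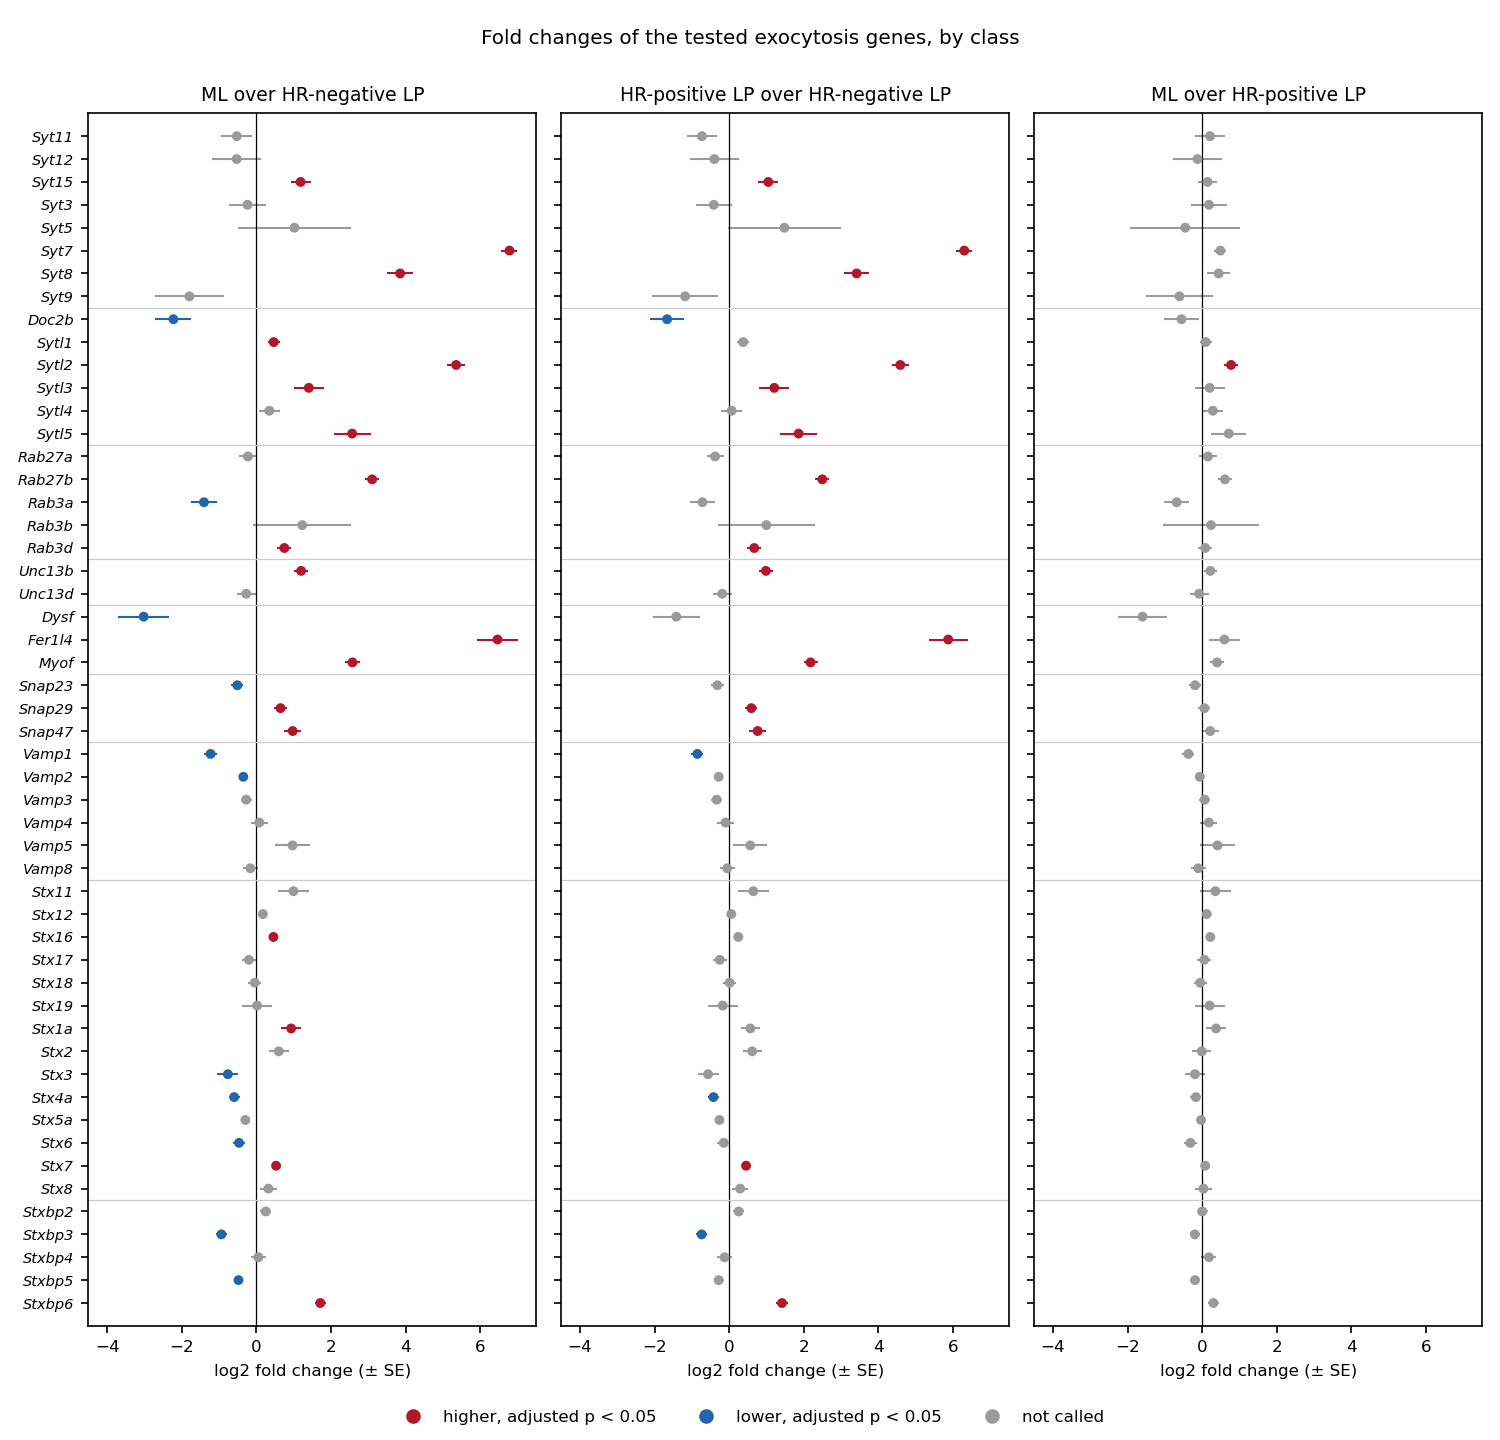
Log2 fold change with its SE for 52 tested members in ML over HR- LP, HR+ LP over HR- LP and ML over HR+ LP, ordered by class. Snap25 and Syt17, with 0 counts and 1 count in HR- LP, are left out. Red and blue points passed the edgeR test at adjusted p below 0.05, with 18 higher and 11 lower drawn in the left panel, and a single call, Sytl2, in the right panel.

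Of the synaptotagmins, many of which sense calcium, 4 of 9 tested were higher in HR+ LP than in HR- LP, none lower. The same 4 were higher in ML than in HR- LP. Syt7 (chromosome 19, 10388802 to 10453181, mm10), a slow high-affinity calcium sensor that acts in lysosome exocytosis and plasma membrane repair, stood at 85.2, 99.0 and 97.2 CPM in the ML libraries, 58.2, 73.1 and 69.7 CPM in the HR+ LP libraries and 0.767, 0.737 and 1.15 CPM in the HR- LP libraries. Every ML and HR+ LP library was far above every HR- LP library, and the ML libraries were also all above those of HR+ LP. The log2 fold change was 6.79 in ML against HR- LP (SE 0.21, adjusted p = 1.38e-08) and 6.30 in HR+ LP against HR- LP (SE 0.21, adjusted p = 8.86e-08). ML against HR+ LP gave 0.49 (SE 0.16, adjusted p = 0.13), which was not called. In the annotation 5.13% of the exon bases of Syt7 overlap Gm26859 on the opposite strand, and the library kit does not keep strand.

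Syt8 (chromosome 7, 142434850 to 142440396), a synaptotagmin studied in the acrosome reaction of mouse sperm, had 14.9, 14.3 and 15.9 CPM in ML, 9.90, 10.7 and 12.7 CPM in HR+ LP and 0.504, 1.32 and 1.29 CPM in HR- LP. No library of 1 population reached into the range of another. It was higher than in HR- LP by 3.86 in ML (SE 0.35, adjusted p = 5.70e-06) and by 3.42 in HR+ LP (SE 0.34, adjusted p = 4.17e-05). The promoter window of Syt8 is shown because Syt8 and Fer1l4 are among the 4 members with the largest fold changes and full values. It spans 250 bases before to 50 after the first of 3 RefSeq starts (GRCm38.p6), chr7:142434600-142434899 on the plus strand. Written 5′ to 3′, it holds in capitals AGGTCA, a half-site bound by nuclear receptors that include the estrogen receptor. The windows at the other Syt8 starts, not printed, hold no AGGTCA on either strand.
Syt8: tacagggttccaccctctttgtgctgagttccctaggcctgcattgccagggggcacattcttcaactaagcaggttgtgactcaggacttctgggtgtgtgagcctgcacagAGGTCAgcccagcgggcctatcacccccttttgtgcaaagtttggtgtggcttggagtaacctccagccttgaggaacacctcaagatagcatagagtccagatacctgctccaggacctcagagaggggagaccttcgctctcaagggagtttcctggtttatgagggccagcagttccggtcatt

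Syt15 (chromosome 14, 34219956 to 34230421), whose C2 domains are thought not to bind calcium, showed a smaller difference. It had 11.1, 10.02 and 11.1 CPM in ML, 8.18, 9.21 and 11.8 CPM in HR+ LP and 3.21, 5.05 and 5.90 CPM in HR- LP. ML and HR+ LP overlapped, and both lay above HR- LP, by 1.19 in ML (SE 0.27, adjusted p = 0.00411) and 1.05 in HR+ LP (SE 0.27, adjusted p = 0.0130). The HR+ LP call of Syt15 was lost without HR+ LP replicate 3 (adjusted p = 0.0616).

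Syt17, which lacks the transmembrane region of most synaptotagmins, is named here after its values were seen, because its mean stayed below 10 CPM. It had 643 counts over the ML libraries, 1108 over the HR+ LP libraries and 1 count over the HR- LP libraries. Its level was 5.33 ± 0.883 CPM in ML and 4.25 ± 0.381 CPM in HR+ LP. The ratio to HR- LP was 944 for ML (95% counting interval 168.8 to 37340) and 745 for HR+ LP (133.5 to 29460), and these intervals cover counting error only. It passed the test in both comparisons with HR- LP, with adjusted p = 5.43e-07 for ML and 4.18e-06 for HR+ LP. The other tested synaptotagmins, Syt3, Syt5, Syt9, Syt11 and Syt12, were not called in any comparison, and their means lay between 0.135 CPM (Syt5 in HR- LP) and 6.04 CPM (Syt11 in HR- LP). Syt1 and Syt2, the fast sensors of nerve terminals, were seen in a single HR+ LP library each, with 17 and 32 counts, and Syt6 in a single HR- LP library with 36.

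The synaptotagmin-like proteins bind Rab27 on the vesicle. Of the 6 genes of that class, counting Doc2b, 4 were higher and 1 lower in ML than in HR- LP, and 3 were higher and 1 lower in HR+ LP. Sytl2 (chromosome 7, 90302211 to 90410719), which docks Rab27-bearing vesicles at the plasma membrane, had 45.8, 50.5 and 57.0 CPM in ML, 29.7, 27.8 and 32.1 CPM in HR+ LP and 1.11, 1.63 and 0.859 CPM in HR- LP. The 3 populations did not overlap. The log2 fold change over HR- LP was 5.36 in ML (SE 0.24, adjusted p = 5.15e-08) and 4.58 in HR+ LP (SE 0.23, adjusted p = 6.87e-07).

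Sytl5 (chromosome X, 9747622 to 9998864), another Rab27 effector, had 10.2, 11.4 and 11.8 CPM in ML, 6.02, 6.55 and 7.86 CPM in HR+ LP and 0.504, 2.09 and 3.11 CPM in HR- LP. All 3 populations were separate, with HR- LP spread the widest. It was higher than in HR- LP by 2.57 in ML (SE 0.50, adjusted p = 0.00155) and 1.86 in HR+ LP (SE 0.49, adjusted p = 0.0147). Sytl3 (chromosome 17, 6658133 to 6738070), of the same family, had 13.8, 10.2 and 10.5 CPM in ML, 9.98, 9.63 and 10.3 CPM in HR+ LP and 1.55, 5.33 and 6.12 CPM in HR- LP. ML and HR+ LP overlapped and HR- LP lay below both, most of all in replicate 1. The fold change over HR- LP was 1.41 in ML (SE 0.41, adjusted p = 0.0160) and 1.21 in HR+ LP (SE 0.41, adjusted p = 0.0441). The ML call was lost without ML replicate 1 (adjusted p = 0.0549), and the HR+ LP call was lost without any ML library, any HR+ LP library or HR- LP replicate 2 (adjusted p 0.0536 to 0.0975). For Sytl3, 21.1% of its transcript windows of 50 bases also occur in other genes, mostly in Gm29719, so its counts are uncertain.

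Sytl1 was the most abundant synaptotagmin-like gene per length, at 51.6, 48.3 and 37.3 CPM per kilobase in ML, HR+ LP and HR- LP. It was higher in ML than in HR- LP by 0.47 (SE 0.17, adjusted p = 0.0391), a call lost without ML replicate 1, ML replicate 2, HR+ LP replicate 1, HR- LP replicate 1 or HR- LP replicate 3 (adjusted p 0.0557 to 0.156). Sytl4, known as granuphilin in insulin-secreting cells, averaged 15.01 ± 3.64 CPM in ML, 12.3 ± 3.48 CPM in HR+ LP and 11.7 ± 3.04 CPM in HR- LP and was not called. Doc2b, a soluble calcium sensor of vesicle release, ran the other way at low level and is named after its values were seen. It averaged 1.97 ± 1.26 CPM in ML, 2.87 ± 0.552 CPM in HR+ LP and 9.13 ± 2.82 CPM in HR- LP. It fell by 2.22 in ML against HR- LP (SE 0.48, adjusted p = 0.00312) and fell by 1.67 in HR+ LP against HR- LP (SE 0.47, adjusted p = 0.0201). That second call was lost without HR+ LP replicate 2, HR+ LP replicate 3 or HR- LP replicate 2 (adjusted p 0.0560 to 0.0808).

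Rab27b and Rab3a, GTPases that mark secretory vesicles, differed in opposite directions. Rab27b (chromosome 18, 69979131 to 70141633), which directs docking of secretory granules and exosome release, had 162, 205 and 238 CPM in ML, 116, 127 and 153 CPM in HR+ LP and 19.5, 26.6 and 24.2 CPM in HR- LP. The populations did not overlap, although the lowest ML library was close to the highest HR+ LP library. The fold change over HR- LP was 3.10 in ML (SE 0.19, adjusted p = 4.07e-07) and 2.49 in HR+ LP (SE 0.19, adjusted p = 7.69e-06). Its paralog Rab27a, which moves melanosomes and lytic granules, averaged 6.78 ± 0.906, 6.10 ± 0.435 and 7.95 ± 1.15 CPM in ML, HR+ LP and HR- LP and was not called.

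Rab3a (chromosome 8, 70754703 to 70758608), the Rab of synaptic vesicles, had 6.30, 5.0 and 2.496 CPM in ML, 8.48, 8.42 and 5.22 CPM in HR+ LP and 11.8, 14.1 and 10.4 CPM in HR- LP. The HR- LP libraries were above all others, and ML and HR+ LP overlapped. It fell by 1.40 in ML against HR- LP (SE 0.34, adjusted p = 0.00669). HR+ LP against HR- LP gave -0.72 (SE 0.34, adjusted p = 0.137), which was not called. Rab3d, the Rab3 of exocrine granules, was higher than in HR- LP by 0.75 in ML (SE 0.19, adjusted p = 0.00709) and 0.67 in HR+ LP (SE 0.19, adjusted p = 0.0196). The second call was lost without HR+ LP replicate 1, HR+ LP replicate 2 or HR- LP replicate 3 (adjusted p 0.0540 to 0.0855). Rab3b averaged at most 0.502 CPM in any population and was not called.

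Unc13b (chromosome 4, 43046193 to 43264873), which encodes the vesicle priming factor Munc13-2, had 266, 249 and 208 CPM in ML, 228, 210 and 183 CPM in HR+ LP and 76.9, 118 and 120 CPM in HR- LP. ML and HR+ LP overlapped, and every library of both lay above HR- LP. The fold change was 1.20 in ML (SE 0.19, adjusted p = 0.000331) and 0.98 in HR+ LP (SE 0.18, adjusted p = 0.00252). Unc13d, the Munc13-4 of lytic and secretory granules, averaged 12.8 ± 1.70 CPM in ML, 13.6 ± 0.523 CPM in HR+ LP and 15.4 ± 5.71 CPM in HR- LP, with no call.

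Ferlins are large C2-domain proteins of membrane fusion and repair, and the 3 tested members took different directions. Myof (chromosome 19, 37899036 to 38043577), which encodes myoferlin, had 434, 472 and 423 CPM in ML, 347, 314 and 348 CPM in HR+ LP and 52.5, 84.6 and 85.6 CPM in HR- LP. Each population kept to its own range. The fold change over HR- LP was 2.58 in ML (SE 0.19, adjusted p = 1.24e-06) and 2.18 in HR+ LP (SE 0.19, adjusted p = 1.61e-05). Fer1l4 (chromosome 2, 156019139 to 156053019), whose human counterpart is annotated as a pseudogene, had 118, 143 and 138 CPM in ML, 70.2, 104 and 89.6 CPM in HR+ LP and 1.13, 2.68 and 0.251 CPM in HR- LP. The ranges were again separate. It was higher than in HR- LP by 6.46 in ML (SE 0.54, adjusted p = 3.16e-06) and 5.87 in HR+ LP (SE 0.53, adjusted p = 2.05e-05). The RefSeq promoter window of Fer1l4 is chr2:156052944-156053243 (GRCm38.p6), on the minus strand, and is written 5′ to 3′ along the gene with TGACCT, the reverse complement of AGGTCA, in capitals.
Fer1l4: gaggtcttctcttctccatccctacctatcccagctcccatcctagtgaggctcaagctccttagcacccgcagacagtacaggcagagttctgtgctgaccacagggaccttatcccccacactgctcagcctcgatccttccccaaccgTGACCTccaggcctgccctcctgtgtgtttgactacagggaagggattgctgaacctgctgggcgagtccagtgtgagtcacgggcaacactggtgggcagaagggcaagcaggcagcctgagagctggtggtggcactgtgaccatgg

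Dysf, the muscle membrane repair gene dysferlin, is named after its values were seen. It averaged 0.477 ± 0.364 CPM in ML, 1.42 ± 0.319 CPM in HR+ LP and 3.82 ± 0.530 CPM in HR- LP. It fell by 3.02 in ML against HR- LP (SE 0.69, adjusted p = 0.00416), and HR+ LP against HR- LP gave -1.42 (SE 0.63, adjusted p = 0.117). Otof, the otoferlin of inner hair cells, and Fer1l6 had 15 counts each, all in HR+ LP.

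**Figure D3:**
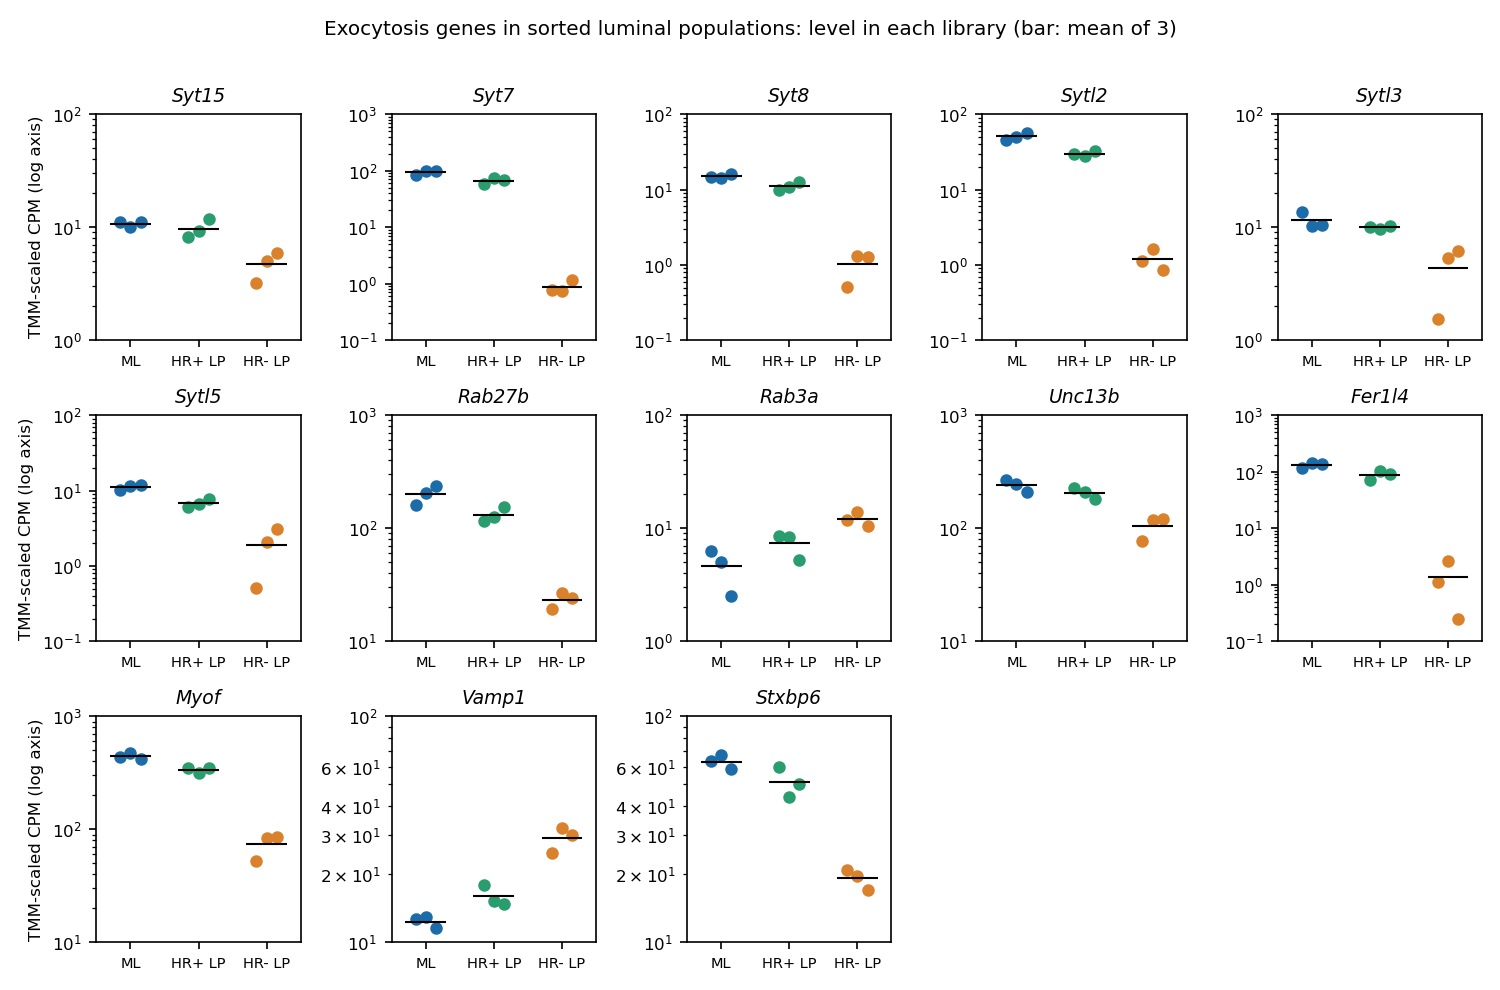
TMM-scaled CPM of 13 members in each library on a log axis, for ML, HR+ LP and HR- LP, where each point is a library and each bar the mean of 3. Syt7, Fer1l4 and Sytl2 lie more than 10 times lower in every HR- LP library than in any other, while Vamp1 and Rab3a are highest in HR- LP.

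SNAP proteins are SNAREs of the target membrane. Of 4 SNAP genes, 3 were higher in HR+ LP than in HR- LP, and in ML 3 were higher and 1 lower. Snap25, the neuronal plasma membrane SNARE, is named after its values were seen, since it stayed below 10 CPM. It had 2.38, 4.49 and 3.93 CPM in ML, 0.772, 1.49 and 1.77 CPM in HR+ LP and no count in any HR- LP library. Against a floor of 3 counts over the 3 HR- LP libraries it was at least 219.7-fold higher in ML and at least 76.0-fold higher in HR+ LP (edgeR adjusted p = 3.62e-05 for ML and 0.000239 for HR+ LP). The medians given for the members are the same with Snap25 placed at this bound. Snap29, which acts in autophagosome fusion, was higher than in HR- LP by 0.65 in ML (SE 0.16, adjusted p = 0.00732) and 0.59 in HR+ LP (SE 0.16, adjusted p = 0.0182). Snap47 was higher by 0.97 in ML (SE 0.23, adjusted p = 0.00547) and 0.76 in HR+ LP (SE 0.23, adjusted p = 0.0288), and 11.6% of its exon bases overlap Jmjd4. Snap23, the SNAP protein of most non-neuronal cells, fell by 0.51 in ML against HR- LP (SE 0.17, adjusted p = 0.0272).

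Several of these SNAP calls depended on single libraries. The HR+ LP call of Snap29 was lost without HR+ LP replicate 1, HR+ LP replicate 2 or HR- LP replicate 2 (adjusted p 0.0512 to 0.0712). The HR+ LP call of Snap47 was lost without these 3 libraries or HR- LP replicate 3 (0.0577 to 0.0952). The Snap23 call was lost without any ML library, HR- LP replicate 2 or HR- LP replicate 3 (0.0634 to 0.0858), and with scaling by library totals (0.108).

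Among 6 tested VAMPs, the vesicle SNAREs, 1 was lower in HR+ LP than in HR- LP and 2 were lower in ML, with none higher. Vamp1 (chromosome 6, 125215581 to 125222306), a synaptobrevin of neurons, had 12.7, 12.9 and 11.6 CPM in ML, 17.9, 15.3 and 14.8 CPM in HR+ LP and 25.0, 32.1 and 29.7 CPM in HR- LP. The populations did not overlap and ran in the opposite order to Syt7. It fell by 1.23 in ML against HR- LP (SE 0.17, adjusted p = 0.00012) and fell by 0.85 in HR+ LP against HR- LP (SE 0.16, adjusted p = 0.00272). Vamp2 fell by 0.35 in ML (SE 0.11, adjusted p = 0.0288), a call lost without any ML library, HR+ LP replicate 2 or HR+ LP replicate 3 (adjusted p 0.0502 to 0.115) and with scaling by library totals (0.239). Vamp8, the VAMP of zymogen granules and late endosomes, was the most abundant VAMP per length at 90.9, 97.9 and 102 CPM per kilobase in ML, HR+ LP and HR- LP and was not called. Vamp7, the lysosomal VAMP, was listed at 0 in every library, and whether that 0 reflects expression or the counting was not tested.

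Syntaxins, the target SNAREs, moved by less than a log2 fold change of 1 in every call. In ML against HR- LP 3 of 14 were higher and 3 lower, and in HR+ LP 1 was higher and 1 lower. Stx7, a late endosomal syntaxin, was higher than in HR- LP by 0.53 in ML (SE 0.12, adjusted p = 0.00347) and 0.45 in HR+ LP (SE 0.12, adjusted p = 0.0138). The HR+ LP call was lost without HR+ LP replicate 2 or HR+ LP replicate 3 (adjusted p 0.0509 and 0.0558). Stx1a, the syntaxin of synapses, was higher in ML by 0.93 (SE 0.27, adjusted p = 0.0145), which was lost without ML replicate 1 (adjusted p = 0.0653). Stx16, of the trans-Golgi network, was higher in ML by 0.46 (SE 0.12, adjusted p = 0.00904), which was lost without ML replicate 2 (adjusted p = 0.0520).

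Stx4a, the plasma membrane syntaxin of the basolateral side, averaged 52.2 ± 2.79 CPM in ML, 58.7 ± 2.09 CPM in HR+ LP and 78.7 ± 14.8 CPM in HR- LP. It fell by 0.59 in ML against HR- LP (SE 0.15, adjusted p = 0.00703). In HR+ LP it fell by 0.42 (SE 0.15, adjusted p = 0.04999), a call lost without any library other than HR- LP replicate 3 (adjusted p 0.0677 to 0.145). That call was also lost with library totals, with no filter beyond a count above 0 and with only both populations in the fit (0.068 to 0.166). Stx3, the apical syntaxin of epithelia, fell by 0.76 in ML (SE 0.28, adjusted p = 0.0463), which was lost without ML replicate 1 or 2, HR+ LP replicate 1 or 2, or HR- LP replicate 3 (0.0548 to 0.202). Library totals, limma voom and a fit of only both populations also ended the Stx3 call (0.0522 to 0.0955). The call of Stx6, lower by 0.46 in ML (log2 fold change -0.46, SE 0.17, adjusted p = 0.0455), was likewise lost without any library other than HR- LP replicate 3 (0.0508 to 0.175). It was also lost with library totals, with no filter beyond a count above 0 and with only both populations in the fit (0.0511 to 0.211). Levels per length of the syntaxins summed to 254.9 ± 0.771, 256.1 ± 3.07 and 275.3 ± 6.80 CPM per kilobase in ML, HR+ LP and HR- LP. The remaining 8 tested syntaxins had no call in either comparison with HR- LP.

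Of 6 tested Stxbp genes, which encode syntaxin binding proteins, 2 were higher and 2 lower in ML than in HR- LP, and 1 was higher and 1 lower in HR+ LP. Stxbp6 (chromosome 12, 44852484 to 45075118), which encodes amisyn, had 63.2, 67.3 and 58.7 CPM in ML, 59.6, 43.8 and 50.1 CPM in HR+ LP and 20.9, 19.6 and 17.0 CPM in HR- LP. ML and HR+ LP overlapped and both stood clear of HR- LP. The fold change was 1.72 in ML (SE 0.15, adjusted p = 5.72e-06) and 1.41 in HR+ LP (SE 0.15, adjusted p = 7.08e-05). Stxbp3, which encodes Munc18c, the binding partner of syntaxin 4, averaged 34.9 ± 2.46 CPM in ML, 39.98 ± 3.18 CPM in HR+ LP and 66.8 ± 8.84 CPM in HR- LP. It fell by 0.94 in ML (SE 0.14, adjusted p = 0.00027) and fell by 0.74 in HR+ LP (SE 0.14, adjusted p = 0.00261), both against HR- LP. Of its transcript windows, 9.27% also occur elsewhere, mostly in the pseudogene Stxbp3-ps.

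Stxbp5, the fusion inhibitor tomosyn, fell by 0.48 in ML against HR- LP (SE 0.13, adjusted p = 0.0123), which was lost without ML replicate 2 (adjusted p = 0.0519) and with scaling by library totals (0.0969). Stxbp2, the Munc18-2 of epithelia and mast cells, made up most of the class per length, 56.1 ± 2.32% in ML, 56.3 ± 3.05% in HR+ LP and 49.9 ± 3.19% in HR- LP, and was not called.

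The makeup of several classes, read per length of gene, differed between populations, among them synaptotagmins, Rabs, ferlins and SNAP genes. Synaptotagmins summed to 32.7 ± 1.57 CPM per kilobase in ML, 25.4 ± 2.25 in HR+ LP and 6.58 ± 1.02 in HR- LP. Syt7 made up 41.2 ± 1.80% of that sum in ML, 37.9 ± 2.83% in HR+ LP and 1.92 ± 0.333% in HR- LP, where Syt12 at 26.5 ± 11.9% and Syt11 at 20.6 ± 5.84% held the largest mean shares. In HR- LP replicate 1 the largest share was that of Syt3, at 29.1%. On the opposite strand, A930001C03Rik overlaps 17.2% of the exon bases of Syt12. Of the summed level of the Rab3 and Rab27 genes, Rab27b made up 49.3 ± 9.07% in ML, 39.0 ± 8.68% in HR+ LP and 11.6 ± 1.45% in HR- LP. Rab3a held 5.53 ± 2.39% of it in ML, 10.5 ± 1.98% in HR+ LP and 29.4 ± 1.74% in HR- LP. Ferlins summed to 84.3 ± 4.92 CPM per kilobase in ML, 62.1 ± 1.76 in HR+ LP and 11.2 ± 2.76 in HR- LP. Myof made up 74.1 ± 1.76% of the ferlin sum in ML, 76.4 ± 4.41% in HR+ LP and 93.1 ± 1.62% in HR- LP. Snap23 made up 29.3 ± 2.26% of the SNAP genes in ML, 35.0 ± 5.03% in HR+ LP and 52.4 ± 8.88% in HR- LP.

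**Figure D4:**
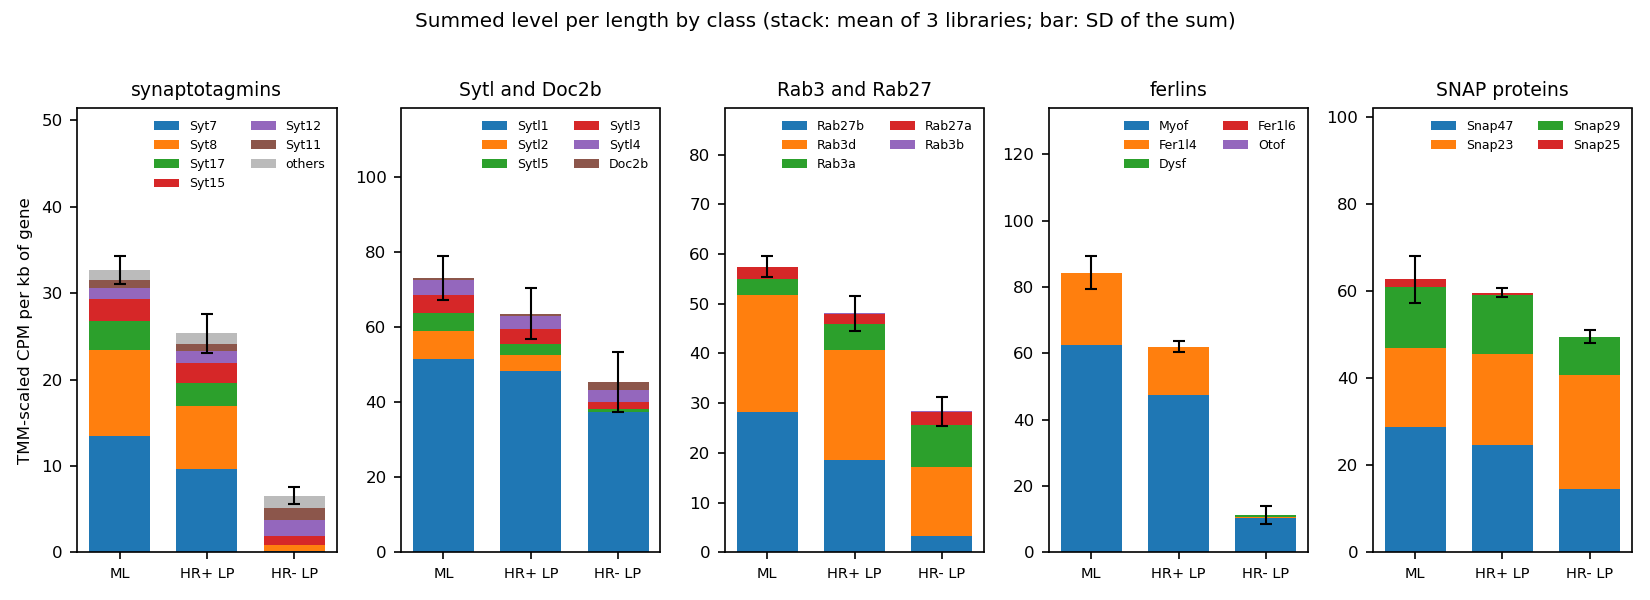
Summed level of 5 classes in TMM-scaled CPM per kilobase of gene, for ML, HR+ LP and HR- LP. Stacks are means of 3 libraries and error bars the SD of the sum. The synaptotagmin stack is 32.7 in ML, 25.4 in HR+ LP and 6.58 in HR- LP, and the Syt7 block is nearly absent from the last.

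The HR+ LP mean lay between those of ML and HR- LP for 44 of 55 tested members (80.0%), a share near the 73.7% of all tested genes. No member was called apart from both other populations in HR+ LP, in the same direction against both, and the count was 0 also at an unadjusted p below 0.05, by DESeq2 and by limma voom. Over all tested genes 0.0% were higher and 0.00629% lower in HR+ LP than in both others.

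In ML against HR+ LP, Sytl2 was the only member called, higher in ML by 0.77 (SE 0.20, adjusted p = 0.0358), where 0.0943% of all tested genes were called higher (15 genes). Its call was lost without any ML or HR+ LP library (adjusted p 0.0641 to 0.171). None of the 55 tested members was lower, against 6.7% of all tested genes. At an unadjusted p below 0.05, 5 members were higher and 2 lower, DESeq2 called 3 higher and limma voom 2 higher, and both called 0 lower. With the replicate number as a block, Rab27b was called beside Sytl2, at a log2 fold change of 0.60 (adjusted p = 0.00885), where the fit without it gave 0.61 (SE 0.18, adjusted p = 0.0772). Without HR- LP replicate 3, 2 members were called.

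Other genes of the pathway, outside the member rule, were read from 5 lists with 74 genes, of which 55 were tested. In HR+ LP against HR- LP 15 were higher and 3 lower, against 17.2% of all tested genes higher and 12.8% lower. In ML against HR- LP 20 were higher and 5 lower, against 23.3% and 21.3% of all tested genes. In ML against HR+ LP 0 were higher and 1 lower, against 0.0943% and 6.7%. The counts of each list below stand beside these same shares, and no list was tested as a set. The 18 calls in HR+ LP against HR- LP became 11, 9 and 9 without HR+ LP replicates 1, 2 and 3, and the 25 in ML against HR- LP became 16 without ML replicate 2. The exocyst, the complex that tethers vesicles to the plasma membrane, had 5 of 10 genes higher in ML and 3 in HR+ LP than in HR- LP, with none lower. Exoc4 averaged 114 ± 8.30 CPM in ML, 97.1 ± 13.8 CPM in HR+ LP and 35.2 ± 11.3 CPM in HR- LP, a log2 fold change over HR- LP of 1.70 in ML (SE 0.22, adjusted p = 8.58e-05) and 1.47 in HR+ LP (SE 0.22, adjusted p = 0.000587). Exoc8 was higher by 1.36 in ML and by 1.34 in HR+ LP, and Exoc7 by 0.50 in ML and by 0.43 in HR+ LP. In ML the Exoc7 call was lost without ML replicate 1 or ML replicate 2 (adjusted p 0.0577 and 0.0613), and the Exoc8 call without ML replicate 2 (0.0504). In HR+ LP the Exoc7 call was lost without any library other than HR- LP replicate 1 (0.0542 to 0.145). The Exoc8 call there was lost without HR+ LP replicate 1, HR+ LP replicate 3 or HR- LP replicate 1 (0.0504 to 0.0878).

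Rab27 and Rab3 effectors and regulators had 17 tested genes of 28, with 6 higher and 3 lower in ML and 5 higher and 1 lower in HR+ LP, against HR- LP. Rims2, an active zone scaffold that binds Rab3, averaged 13.8 ± 1.37 CPM in ML, 9.34 ± 2.51 CPM in HR+ LP and 1.34 ± 0.566 CPM in HR- LP (adjusted p = 2.77e-05 for ML and 0.000244 for HR+ LP against HR- LP). Rab3ip, an exchange factor that activates Rab8, was higher by 1.33 in ML and 1.12 in HR+ LP (adjusted p = 0.000122 for ML and 0.000876 for HR+ LP). Cplx2, a complexin that clamps SNARE complexes, fell by 1.07 in ML and fell by 0.57 in HR+ LP (adjusted p = 0.000212 for ML and 0.0173 for HR+ LP), the second lost without HR+ LP replicate 2, HR+ LP replicate 3 or HR- LP replicate 2 (0.0632 to 0.0771). Rab37, a Rab of secretory granules in mast cells, is named after its values were seen. It had 19.3, 15.6 and 9.68 CPM in ML, 12.5, 10.7 and 5.95 CPM in HR+ LP and 0.545, 0 and 0 CPM in HR- LP (adjusted p = 0.000431 for ML and 0.00156 for HR+ LP).

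The list of other SNAREs and related proteins, most of them of the endoplasmic reticulum and Golgi, had 4 of 12 genes higher and 1 lower in both comparisons with HR- LP. Sec22c was higher by 1.59 in ML and 1.33 in HR+ LP (adjusted p = 0.000371 for ML and 0.00231 for HR+ LP). Use1 fell by 0.88 in ML and fell by 0.49 in HR+ LP (adjusted p = 0.000419 for ML and 0.0213 for HR+ LP). Gosr2 was higher by 0.56 in ML and 0.40 in HR+ LP (adjusted p = 0.00235 for ML and 0.0235 for HR+ LP). In HR+ LP the Use1 call was lost without any HR+ LP library or HR- LP replicate 2 (0.0507 to 0.0965), and the Gosr2 call also without ML replicate 2 (0.0517 to 0.0918). Among 11 SNARE recycling and SM genes 3 were higher in ML and 1 in HR+ LP, with none lower. Vps45, the SM protein of Stx16, was higher by 0.54 in ML and 0.61 in HR+ LP (adjusted p = 0.0169 for ML and 0.0134 for HR+ LP). The ML call of Vps45 was lost without ML replicate 1 or 2 (0.0558 and 0.0833) and the HR+ LP call without HR+ LP replicate 1 (0.0533). Nsf and Vps33b were higher in ML by 0.41 and 0.47 (adjusted p = 0.0268 and 0.0447), and leaving out ML replicate 1 or 2 ended both calls (adjusted p up to 0.113 for Nsf and 0.134 for Vps33b), as did leaving out ML replicate 3, any HR+ LP library or HR- LP replicate 3 for Vps33b.

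Of 13 genes for dense-core granule cargo and its processing, 5 were tested, with 2 higher and 1 lower in both comparisons with HR- LP. Cpe, carboxypeptidase E of prohormone processing, had 0.502, 0.659 and 0.377 CPM in ML, 16.9, 21.9 and 23.0 CPM in HR+ LP and 62.5, 66.6 and 68.3 CPM in HR- LP. The populations were far apart, and Cpe was the single companion gene called between ML and HR+ LP, where it fell by 5.31 (SE 0.23, adjusted p = 3.98e-07). Pam, which amidates peptide hormones, was higher than in HR- LP by 0.57 in ML and 0.44 in HR+ LP (adjusted p = 0.00219 for ML and 0.0151 for HR+ LP), the second lost without HR+ LP replicate 2 or 3 (0.0509 and 0.0552). Pcsk1, a prohormone convertase, had 0, 0.447 and 0.706 CPM in ML, 0.229, 0.109 and 0.296 CPM in HR+ LP and no count in HR- LP, so that 1 ML library overlapped HR- LP. Its calls (adjusted p = 0.0215 for ML and 0.0471 for HR+ LP) were lost without ML replicate 2, ML replicate 3 or HR- LP replicate 2 in ML (0.0577 to 0.0682), and in HR+ LP without any library other than ML replicate 1 (0.0775 to 0.113). Chga, the granule protein chromogranin A, had counts in 1 ML library (0.0471 CPM) and 1 HR+ LP library (0.0191 CPM) and none in HR- LP.

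Several of these genes are best known from neurons, endocrine cells, mast cells and platelets, so markers of those cells were read in the same libraries. The 8 neuron markers summed to 0.536 to 1.21 CPM in ML, 0.553 to 2.13 CPM in HR+ LP and 0.179 to 1.18 CPM in HR- LP. The 6 neuroendocrine markers summed to at most 0.837 CPM in ML, 0.669 CPM in HR+ LP and 1.49 CPM in HR- LP, and the 6 mast cell markers to at most 0.4003 CPM in ML, 0.351 CPM in HR+ LP and 0.363 CPM in HR- LP, with Cpa3, Mcpt4, Tpsb2 and Ms4a2 at 0 in every library. Platelet markers summed to 14.6 to 21.7 CPM in ML, 10.7 to 17.2 CPM in HR+ LP and 8.52 to 23.3 CPM in HR- LP, ranges that overlap. Schwann cell markers summed to 81.1 to 107.9 CPM in ML, 97.5 to 125 CPM in HR+ LP and 96.6 to 186 CPM in HR- LP, with 1 of 5 tested (Ncmap) higher and 1 (Pmp22) lower in ML and in HR+ LP than in HR- LP. Immune markers summed to 2.51 to 3.16 CPM in ML, 4.73 to 6.01 CPM in HR+ LP and 10.2 to 12.9 CPM in HR- LP, and fibroblast markers to 106 to 318 CPM in ML, 61.3 to 268 CPM in HR+ LP and 73.7 to 121 CPM in HR- LP. Of the 6 fibroblast markers, Dcn was higher in ML and in HR+ LP than in HR- LP, whereas 3 were lower in ML (Col1a2, Col3a1 and Pdgfra) and 5 in HR+ LP (these 3, Col1a1 and Lum). Dcn carried much of the sum, at 152.7 ± 127.6 CPM in ML, 128.5 ± 108.5 CPM in HR+ LP and 8.94 ± 2.14 CPM in HR- LP. Of 4 immune markers tested, 1 was lower in ML and 1 in HR+ LP than in HR- LP, with none higher. The part of immune, fibroblast, Schwann and platelet RNA in the members' values was not tested. Endothelial markers summed to 4.12 to 6.19 CPM in ML, 2.69 to 5.98 CPM in HR+ LP and 5.65 to 9.14 CPM in HR- LP, and basal markers to 21.5 to 32.7 CPM in ML, 21.6 to 33.9 CPM in HR+ LP and 23.6 to 57.9 CPM in HR- LP. Markers of luminal cells were high in all libraries, at 13240 to 16380 CPM in ML, 12880 to 17240 CPM in HR+ LP and 14670 to 16810 CPM in HR- LP. Hormone sensing markers summed to 8465 to 11060 CPM in ML, 5862 to 6926 CPM in HR+ LP and 199.7 to 471.8 CPM in HR- LP, and alveolar progenitor markers to 147.5 to 271.8 CPM in ML, 3312 to 3586 CPM in HR+ LP and 10340 to 12130 CPM in HR- LP.

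Promoter windows were compared because several members moved together. RefSeq windows (GRCm38.p6, 250 bases before to 50 after each start) were found for 50 members, with 64 starts. Among the 4 members with the largest fold changes and full values, Fer1l4 and Syt8, printed above, had an entry, and Syt7 and Sytl2 had none. AGGTCA was found on either strand in 13 of 64 member windows (20.3%) and in 16.3% of all 32851 windows. AGAACA, a half-site of progesterone and glucocorticoid receptors, was found in 6 (9.38%) and in 19.0% of all windows. The forkhead motif TGTTTAC was in 2 (3.12%) against 3.65%, GTCACGTG, the CLEAR element bound by TFEB, in 2 (3.12%) against 2.25%, and the ETS motif CCGGAAGT in 0 against 3.89%. The last bases of AGGTCA can also begin GTCACGTG. These matches describe letters in the windows only.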

How the data were processed

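The deposited table gives raw counts of reads per gene for 9 libraries, 3 from each sorted population. Per the labels' protocols, total RNA was extracted with a miRNeasy kit, treated with DNase and turned into libraries by TruSeq RNA kit v2, which does not keep strand. The submitters' processing notes name featureCounts and mm10, and the aligner, the annotation and the handling of reads with several matches are not given in the sources used here. The authors deposited the counts unnormalized, with gene lengths in bases. The table of the whole series and the files of each sample held the same values, with 0 cells differing.

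Of 27179 NCBI gene IDs, 25275 (93.0%) were matched to symbols and mm10 positions in RefSeq. After filterByExpr, 15910 genes were tested with the quasi-likelihood test of edgeR 4.0.16 in R 4.3.3 on all 9 libraries, with TMM scaling, population as the only term and Benjamini-Hochberg adjustment at 0.05. The steps were tested on simulated data. CPM and CPM per kilobase were computed from the counts. Overlaps and shared transcript windows of 50 bases used GENCODE vM21. Counts of 0 were set against a floor of 3 counts. DESeq2 1.42.0, limma 3.58.1 (voom), other scalings and filters, a replicate block, fits of the compared populations only and fits without each library were alternatives. Depth (27219103 to 108119756 counts) leaves counting error small for genes above a few CPM, so the spread between libraries sets the precision.

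Values in every library are given for members called in at least 1 comparison with an absolute log2 fold change over 1 there and a mean of at least 10 CPM in a population, and up to 3 genes with the smallest p are named per companion list. Results of 2 members are not reported here by name or drawn. The members, the companion and marker lists and the rule for naming genes were chosen with earlier results of these data known, so they are not independent of them. Same-numbered ML and HR+ LP libraries deviated together across genes (correlations 0.183, 0.121 and 0.189). Whether the numbers mark pairs is not given in the labels. The main fit did not use the numbers, and the replicate block did. For ML with HR- LP the correlations were 0.0526, 0.0254 and 0.0849, and for HR+ LP with HR- LP 0.133, 0.0389 and 0.147. Libraries with different numbers were not compared, so these values do not settle which populations are paired.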

Additional observations from a re-analysis of the deposited data

How the results depend on the processing

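None of the members' fold changes named in the report changed sign under the alternatives run. For the 13 members with full values, 630 fold changes kept their side of the threshold, 16 became called and 17 lost their call. The number of members called between ML and HR+ LP, 1 in the report, was 2 with library totals, 3 with DESeq2, 2 with limma voom, 2 with the replicate block and 6 with only both populations in the fit, and leaving out a library gave 0 to 3. The companion genes called in HR+ LP against HR- LP numbered 9 to 17 without a library (18 with all), those in ML against HR- LP 16 to 25 (25 with all), and those in ML against HR+ LP became 2 with only both populations in the fit. The lower members in HR+ LP against HR- LP numbered 7 with DESeq2, and those in ML against HR- LP 6 with library totals. With the replicate block 19 members were higher and 6 lower in HR+ LP against HR- LP and 22 higher and 12 lower in ML against HR- LP, and Rab3a was called in HR+ LP against HR- LP (adjusted p = 0.0429). Among the 13 members with full values the block changed no call other than those of Rab3a and Rab27b. Some calls given above as lost without a library were also lost under other scalings, filters or fits. Against HR- LP they include Sytl1 in ML, and Sytl3, Gosr2, Use1, Exoc7, Exoc8 and Cplx2 in HR+ LP. The cause of these changes was not tested. Counts near 1 CPM, as for Syt7, Fer1l4 and Sytl2 in HR- LP, limit the precision of the largest fold changes.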

Other observations

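The HR- LP libraries differed among themselves for several members. Of the 13 members with full values, 8 had their lowest HR- LP level in replicate 1, 1 in replicate 2 and 4 in replicate 3. The 13 include Vamp1 and Rab3a, which were highest in HR- LP. Shares over all tested genes are not given here, so these counts are not read as particular to the members. Myof, for example, stood at 52.5 CPM in replicate 1 against 84.6 CPM in replicate 2 and 85.6 CPM in replicate 3. In the same libraries Esr1 had 8.98, 20.6 and 15.6 CPM and Prlr, the prolactin receptor gene, 119, 303 and 171 CPM in replicates 1, 2 and 3, whereas Pgr had 6.32, 15.8 and 6.12 CPM. The part of hormone sensing cells in the HR- LP values of the members was not tested. Without HR- LP replicate 1, 3 members were called between ML and HR+ LP, where all libraries gave 1.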
